A study of Mus musculus with 9 samples.

Results

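The 10 genes described here carry the nitric oxide, cyclic GMP (cGMP) and prostacyclin signals of the vessel wall. They are Nos3, Ddah1, Gucy1a1, Gucy1b1, Prkg1, Pde5a, Pde3a, Npr3, Ptgis and Ptgir, taken by name from the 53342 genes of the deposited table. Of the 10, 8 were found by symbol, and Gucy1a1 and Gucy1b1 were found by gene ID, since the table lists them as Gucy1a3 and Gucy1b3. All 10 passed the filter on low counts, as did 19640 genes in all.

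Whole lung of C57BL/6 mice was profiled by poly(A) RNA sequencing in 9 libraries, which form 3 groups of 3. The first group (replicates 3, 4 and 5) lived at 10% O2 and received PTH 1–34, the amino-terminal fragment of parathyroid hormone, at 40 µg/kg/day, and is called hypoxia with PTH. The second group, hypoxia (replicates 1, 2 and 5), and the third, normoxia (replicates 2, 3 and 5), are titled WT. The stated hypoxic exposure was 3 weeks, which is a standard way to induce pulmonary hypertension in mice. The study asked how PTH affects this hypoxia-induced disease. Saline was given to a sham group, but the labels do not say which libraries belong to it. They give no age or sex and do not state whether the libraries come from different animals. The p-values therefore reflect spread among these libraries, which may be technical.

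As background, nitric oxide made by endothelial cells crosses to smooth muscle cells and pericytes and activates soluble guanylyl cyclase, whose product cGMP relaxes the vessel through a protein kinase. Prostacyclin is a second endothelial signal, which acts through its receptor and cyclic AMP (cAMP). Phosphodiesterases break both nucleotides down, and drugs for pulmonary hypertension act on the cyclase, on phosphodiesterase 5 and on the prostacyclin receptor.

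The promoters of 4 members are shown, those of both cyclase subunits, of the prostacyclin receptor and of the natriuretic peptide receptor Npr3, because these genes carry the patterns described below. Each is the 250 bases before a RefSeq transcription start (GRCm38.p6, the same assembly as mm10), written 5′ to 3′ on the gene's strand. Capitals mark GGGCGG, the GC box, found on either strand. Gucy1a1 and Gucy1b1 are neighbouring genes on the minus strand of chromosome 3, and their windows are chr3:82145651-82145900 and chr3:82074712-82074961. The Ptgir window is chr7:16906240-16906489 on the plus strand, and the Npr3 window is chr15:11907372-11907621 on the minus strand.
Gucy1a1: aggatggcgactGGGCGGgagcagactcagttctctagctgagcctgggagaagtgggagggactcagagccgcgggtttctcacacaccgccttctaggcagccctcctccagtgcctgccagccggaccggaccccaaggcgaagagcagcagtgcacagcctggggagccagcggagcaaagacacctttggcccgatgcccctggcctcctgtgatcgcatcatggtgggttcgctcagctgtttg
Gucy1b1: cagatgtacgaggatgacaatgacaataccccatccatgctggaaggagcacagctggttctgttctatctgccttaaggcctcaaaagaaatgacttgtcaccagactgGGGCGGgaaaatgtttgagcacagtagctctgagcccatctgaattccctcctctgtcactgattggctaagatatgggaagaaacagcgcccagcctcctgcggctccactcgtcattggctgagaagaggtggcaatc
Ptgir: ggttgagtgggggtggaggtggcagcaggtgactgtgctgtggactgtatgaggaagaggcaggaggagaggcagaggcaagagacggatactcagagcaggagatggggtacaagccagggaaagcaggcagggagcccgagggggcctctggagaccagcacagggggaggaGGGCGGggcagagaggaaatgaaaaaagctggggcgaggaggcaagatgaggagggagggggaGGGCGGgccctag
Npr3: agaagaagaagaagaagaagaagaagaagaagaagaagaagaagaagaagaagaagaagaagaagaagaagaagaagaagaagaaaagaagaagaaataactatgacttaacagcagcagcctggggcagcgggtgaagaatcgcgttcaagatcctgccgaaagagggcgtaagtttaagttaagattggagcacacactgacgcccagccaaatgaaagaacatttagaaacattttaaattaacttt
RefSeq windows were matched for 7 of the 10 members, 9 windows in all, and there was no entry for Nos3, Pde3a or Ptgis. The GC box occurred in 32.7% of 32851 promoter windows of this length. Among the 4 shown, Ptgir held 2 copies, Gucy1a1 and Gucy1b1 held 1 each, and Npr3 held 0. The window of a second Gucy1a1 start (chr3:82145074-82145323), not shown, held 0. ACGTG, the core letters of the hypoxia response element, was in 0 of the 9 windows searched on both strands and in 16.6% of all promoters. The Npr3 window opens with a long GAA repeat.

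Expression is given as CPM, counts scaled to the library's total with TMM factors, for comparing a gene between libraries, and as TPM, which allows for gene length, for comparing genes. By mean TPM over the 9 libraries, prostacyclin synthase (Ptgis, 161 TPM) and the cyclase subunits (Gucy1b1, 138 TPM, and Gucy1a1, 103 TPM) were the most abundant members. Pde5a had 50.4 TPM, Npr3 48.5, Nos3 39.6, Pde3a 21.7 and Ddah1 15.8 TPM. Ptgir, at 4.76 TPM, and Prkg1, at 2.62 TPM, came last. Only the steps from Gucy1a1 to Pde5a and from Ddah1 to Ptgir separated neighbours whose ranges over the 9 libraries did not overlap. The synthase of prostacyclin lay far above its receptor in TPM, and Gucy1b1 exceeded Gucy1a1 in 9 of 9 libraries.

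Totals were 40234030 to 58391086 counts per library, and the rarest members, Prkg1 and Ptgir, still had 264 to 535 and 126 to 349 counts. The markers of lung epithelium summed to 44016 to 46736 CPM in hypoxia with PTH, 41799 to 48600 in hypoxia and 49138 to 52487 in normoxia, so they were abundant in every library. Dbp, which the circadian clock drives, was at 160 to 316 CPM in 4 libraries (hypoxia replicates 1 and 2, normoxia replicates 2 and 3) and at 6.14 to 16.5 CPM in the other 5, which include all 3 of hypoxia with PTH. The sum of 11 cardiac muscle markers was 54.5 to 538 CPM in hypoxia with PTH, 456 to 1726 CPM in hypoxia and 281 to 934 CPM in normoxia. That of 10 adipocyte markers was 25.7 to 67.3 CPM in hypoxia with PTH, 24.5 to 411 CPM in hypoxia and 36.3 to 299 CPM in normoxia, with Lep and Ucp1 at 0 in some libraries. By edgeR 0 of 11 cardiac and 0 of 8 tested adipocyte markers were called in any comparison (at an unadjusted p under 0.05, 0 and at most 1). Their spread was wide, and in hypoxia with PTH against hypoxia 0 of the 11 and 0 of the 8 were above 0. The median log2 fold changes there were -1.76 and -2.84, so the lack of calls does not show equal content of these tissues. Normoxia replicate 5 was the highest library for Npr3, Pde3a, Prkg1 and Ddah1 and the lowest for Ptgis and Ptgir. It was also the normoxic library poorest in Dbp, cardiac muscle and adipocyte markers, and the part of these in its values was not tested.

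**Figure D1:**
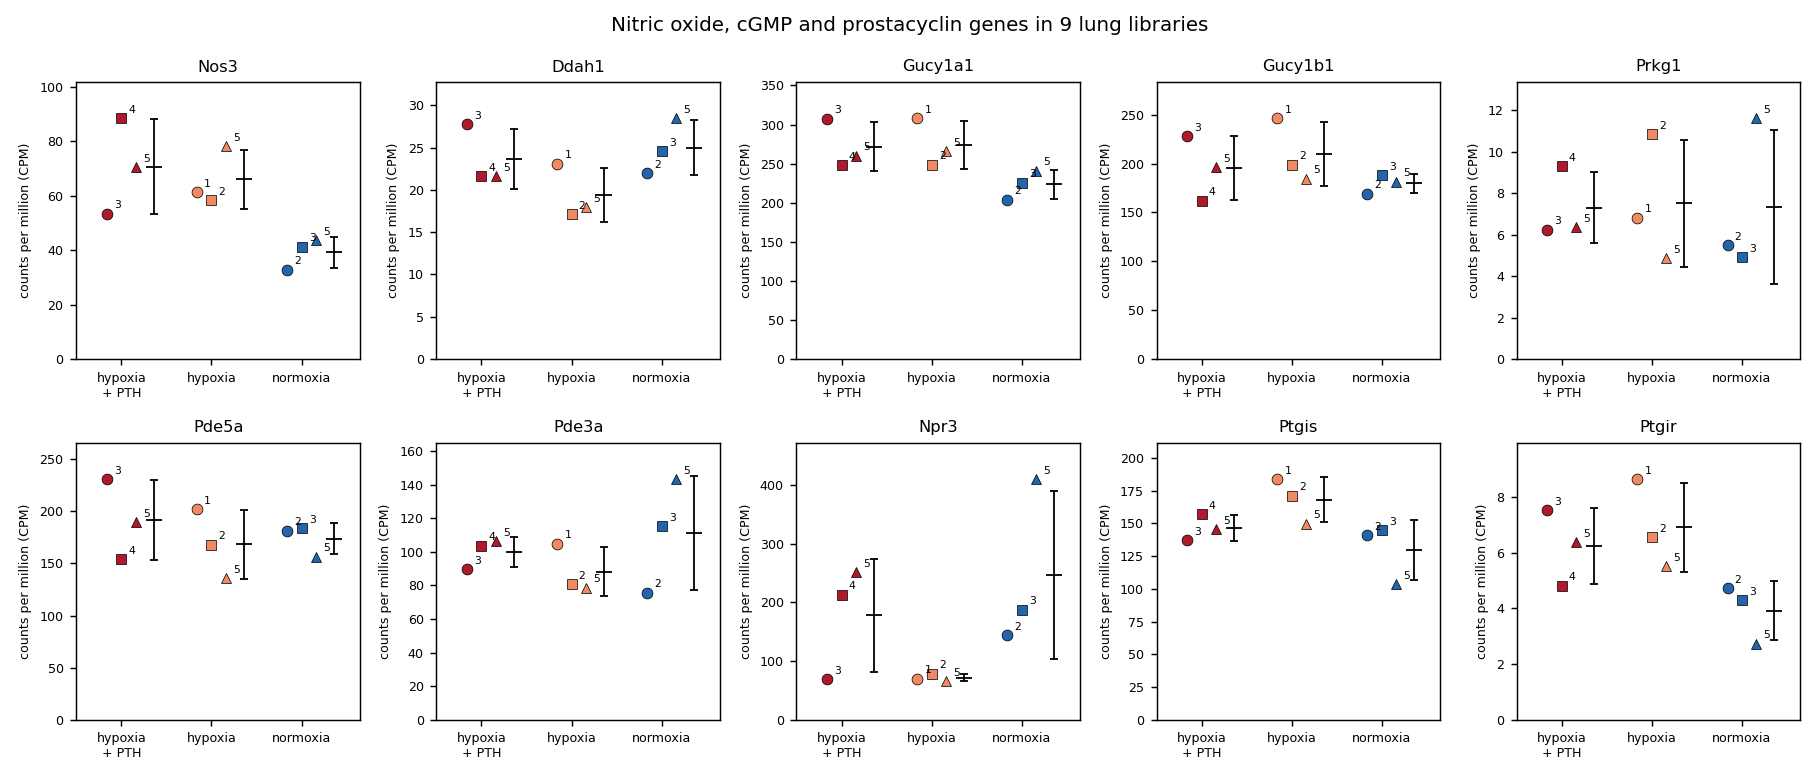
CPM (y axes, each from 0) of the 10 members in the 9 libraries, with hypoxia with PTH on the left, hypoxia in the middle and normoxia on the right. Points are libraries marked with their replicate number, and bars show the mean and SD of 3. Nos3 lies above normoxia in all 6 hypoxic libraries, and Npr3 is spread over 68.7 to 252 CPM with PTH but lies between 66.1 and 78.2 CPM in hypoxia.

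No member passed the test at a Benjamini-Hochberg adjusted p under 0.05 (edgeR quasi-likelihood test, 1 model of all 9 libraries) in any comparison. In hypoxia against normoxia 0 of 10 members were called, against 0.57% of all genes tested (0.412% higher, 0.158% lower), in hypoxia with PTH against hypoxia 0 of 10 against 0% of all genes, and in hypoxia with PTH against normoxia 0 of 10 against 1.74% (1.27% higher, 0.468% lower). At an unadjusted p under 0.05, 6 of 10 members passed in hypoxia against normoxia (11.8% of all genes), 1 of 10 in hypoxia with PTH against hypoxia (9.31%), and 3 of 10 in hypoxia with PTH against normoxia (17.2%). DESeq2 called 2, 0 and 1 members in these comparisons. The values below are therefore descriptions of differences that the main test did not call. The comparisons with normoxia share its 3 libraries and are not independent of each other.

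Groups did not overlap for 5 members in hypoxia against normoxia, Nos3, Gucy1a1, Ptgis and Ptgir being higher and Npr3 lower. Over all genes, 8.56% were higher and 8.57% lower without overlap. For 3 members the groups were apart in hypoxia with PTH against normoxia, Nos3, Gucy1a1 and Ptgir, all higher, beside 22.8% of all genes apart in either direction and 11.4% higher. In hypoxia with PTH against hypoxia they overlapped for all 10 members, beside 13.9% of all genes that did not (6.6% higher, 7.29% lower). The median log2 fold change of the members was 0.13 in hypoxia against normoxia, 0.04 in hypoxia with PTH against hypoxia and 0.13 in hypoxia with PTH against normoxia, while the medians over all genes were -0.00, -0.01 and -0.01. By size without sign, the members' median in hypoxia against normoxia was 0.35, beside 0.15 for all genes. For a gene whose groups do not overlap the exact permutation test gives 0.1, the smallest p that 3 against 3 libraries allow, two-sided.

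**Figure D2:**
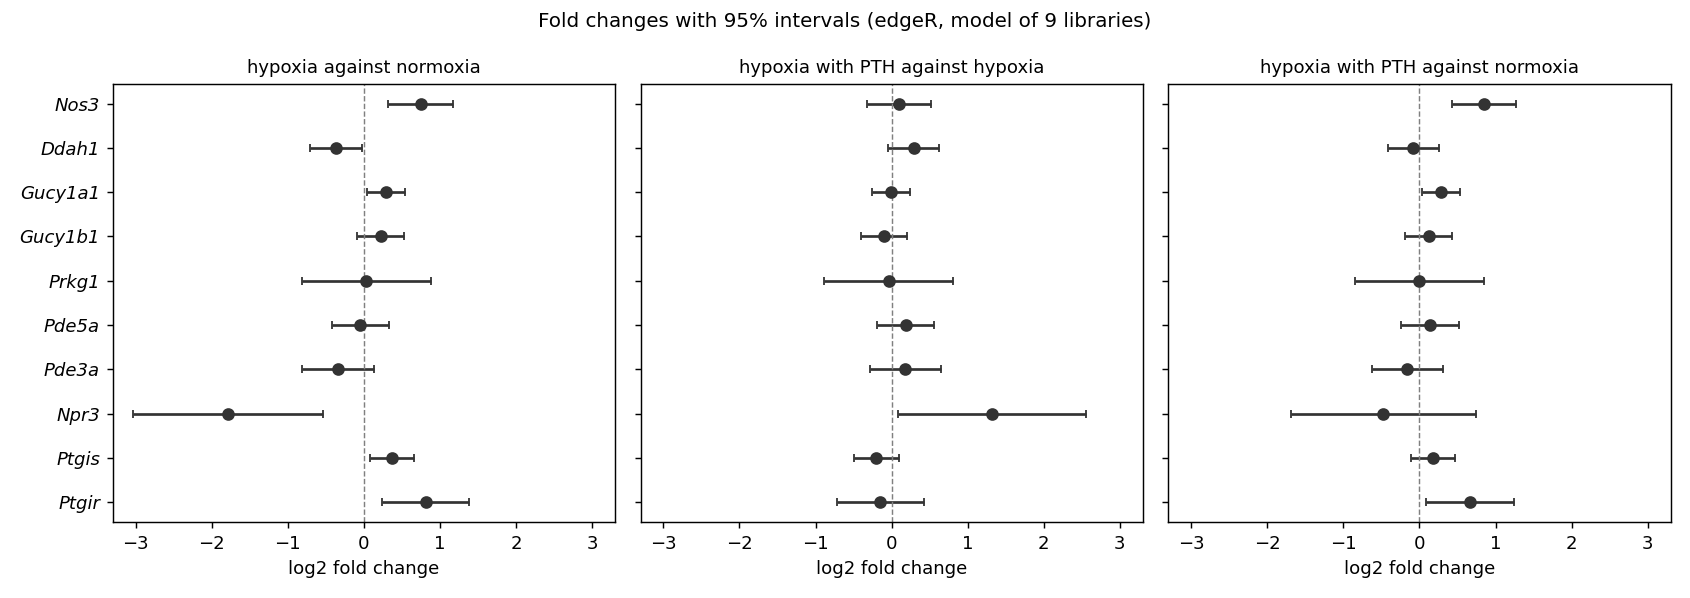
Log2 fold changes (x axis) of the 10 members (rows) in the 3 comparisons, from edgeR, with bars for the 95% interval. Intervals of Nos3 and Ptgir lie above 0 in both comparisons with normoxia, and that of Npr3 is the widest, from -3.04 to -0.54 in hypoxia against normoxia.

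Nos3, endothelial nitric oxide synthase (mm10, chr5:24364810-24384474, plus strand), makes nitric oxide from arginine. It had 53.3, 88.3 and 70.3 CPM in hypoxia with PTH (replicates 3, 4 and 5), 61.3, 58.3 and 78.3 CPM in hypoxia (replicates 1, 2 and 5) and 32.8, 41.3 and 43.7 CPM in normoxia (replicates 2, 3 and 5). Every hypoxic library, with or without PTH, lay above every normoxic one. Means were 70.7 ± 17.5 CPM in hypoxia with PTH, 65.9 ± 10.8 in hypoxia and 39.3 ± 5.70 in normoxia (SD, n = 3 each). The log2 fold change was 0.75 in hypoxia against normoxia (SE 0.19, edgeR adjusted p = 0.124) and 0.85 in hypoxia with PTH against normoxia (SE 0.19, edgeR adjusted p = 0.0597). DESeq2 called both, with adjusted p of 0.0071 and 0.000733, and without PTH replicate 3 edgeR called the second (log2 fold change 1.02, adjusted p = 0.0255). Between hypoxia with PTH and hypoxia the difference was 0.10, with a 95% interval from -0.32 to 0.52.

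Nos3 is an endothelial gene, so its values were set beside the markers of endothelial cells. The sum of 10 such markers (among them Pecam1, Cdh5 and Cldn5) ran from 4943 to 6025 CPM in hypoxia with PTH, from 4469 to 5828 in hypoxia and from 4686 to 6265 in normoxia, with overlap of all groups. In hypoxia against normoxia edgeR called 0 of the 10 (2 at an unadjusted p under 0.05), and in hypoxia with PTH against normoxia 1, Tspan7, fell. Set against that sum, Nos3 had 10.8, 14.7 and 12.4 CPM per 1000 CPM of endothelial markers in hypoxia with PTH, 12.1, 13.04 and 13.4 in hypoxia and 7.01, 7.29 and 6.97 in normoxia. The normoxic values lay within a narrow band below all 6 others. This ratio was chosen after its values were seen and has no test. In bulk tissue, fewer cells of a type and less RNA per cell cannot be told apart.

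**Figure D3:**
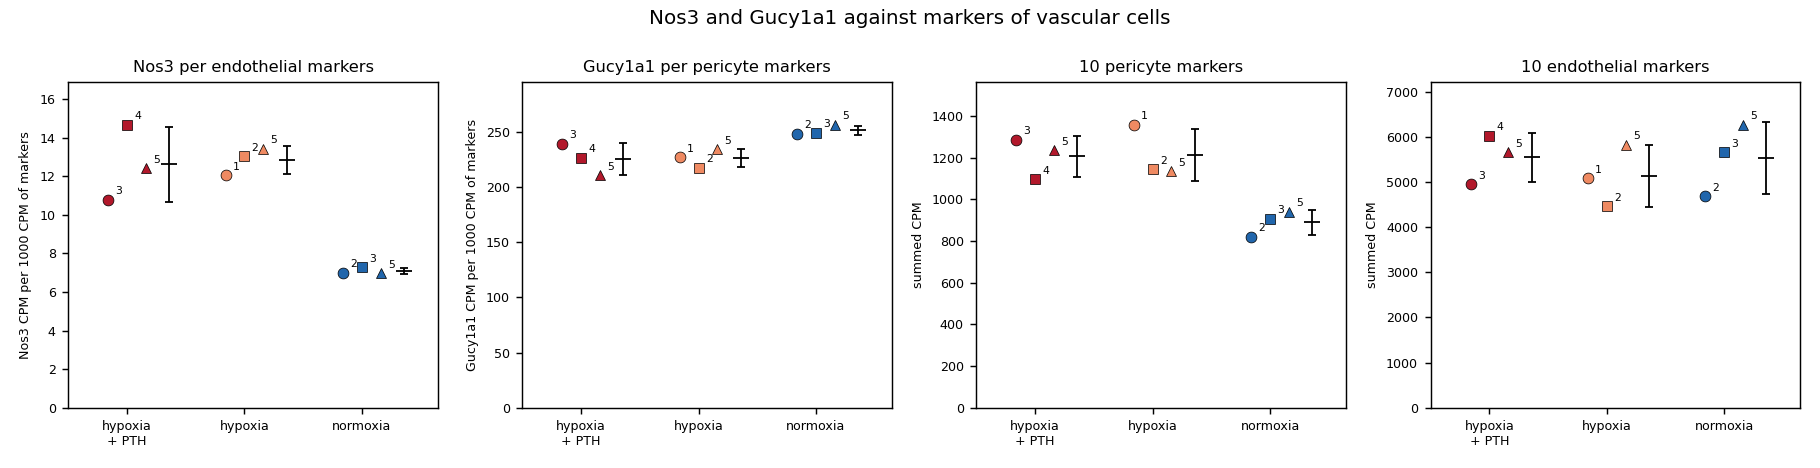
From left to right, Nos3 CPM per 1000 CPM of 10 endothelial markers, Gucy1a1 CPM per 1000 CPM of 10 pericyte markers, and the summed CPM of the pericyte and of the endothelial markers, in hypoxia with PTH, hypoxia and normoxia. Points are libraries with their replicate number, bars the mean and SD of 3. The Nos3 ratio is 10.8 to 14.7 in the hypoxic libraries and 6.97 to 7.29 in normoxia, whereas the pericyte sum, not the Gucy1a1 ratio, is higher in the hypoxic libraries.

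The genes whose pattern over the 9 libraries was most like that of Nos3, of 11785 genes with at least 5 CPM, were Crispld2, Gdpd5 and Rgs4. Their root mean square differences from Nos3 in centred log2 CPM were 0.134, 0.136 and 0.146, while the SD of Nos3 itself was 0.462 on that scale. The libraries share their depth and cell makeup, so this is a description. Within the 4 libraries rich in the clock output gene Dbp (hypoxia 1 and 2, normoxia 2 and 3) Nos3 was higher in hypoxia than in normoxia by 0.70 in log2 CPM, and within the 2 poor in it (replicate 5 of each) by 0.84. The overlapping antisense gene Gm15587 had 5.42% of the TPM of Nos3.

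Ddah1 breaks down asymmetric dimethylarginine, an inhibitor of nitric oxide synthases. It had 27.7, 21.6 and 21.6 CPM in hypoxia with PTH, 23.1, 17.1 and 17.9 CPM in hypoxia and 22.0, 24.6 and 28.4 CPM in normoxia. Hypoxia replicates 2 and 5 lay lowest, PTH replicates 4 and 5 lay just under the lowest normoxic library, and the other library of each hypoxic group lay within the normoxic range. In log2, the difference was -0.37 in hypoxia against normoxia (SE 0.15, edgeR adjusted p = 0.372) and 0.29 in hypoxia with PTH against hypoxia (95% interval -0.05 to 0.63). The pseudogene Rpl36a-ps2 lies within Ddah1 on the same strand and had 83.3% of its TPM, so its counts could have been split between them.

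Gucy1a1 and Gucy1b1 encode the alpha and beta subunits of soluble guanylyl cyclase, the nitric oxide receptor (mm10, chr3:82092427-82145789 and chr3:82032006-82074689). Gucy1a1 had 308, 248 and 260 CPM in hypoxia with PTH, 308, 249 and 266 CPM in hypoxia and 204, 226 and 241 CPM in normoxia. The 6 hypoxic libraries lay above the 3 normoxic ones by a small margin. Its log2 fold change was 0.29 in hypoxia against normoxia (SE 0.11, edgeR adjusted p = 0.327), 0.28 in hypoxia with PTH against normoxia (SE 0.11, edgeR adjusted p = 0.236) and -0.01 in hypoxia with PTH against hypoxia (95% interval -0.26 to 0.24).

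Gucy1b1 had 228, 162 and 196 CPM in hypoxia with PTH, 246, 199 and 185 CPM in hypoxia and 169, 188 and 181 CPM in normoxia. PTH replicate 4 was the lowest of all libraries and the groups overlapped. In log2, Gucy1b1 differed by 0.22 in hypoxia against normoxia (95% interval -0.08 to 0.53) and -0.10 in hypoxia with PTH against hypoxia (95% interval -0.41 to 0.20).

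Hypoxia replicate 1 and PTH replicate 3 were the 2 highest libraries for Gucy1a1, Gucy1b1, Pde5a and Ptgir, and also had the highest sums of pericyte markers, 1358 and 1287 CPM. Pericytes are the mural cells of small vessels. The sum of 10 pericyte markers was 1095 to 1287 CPM in hypoxia with PTH, 1134 to 1358 in hypoxia and 820 to 941 in normoxia, and 3 of the 10 (Cspg4, Higd1b and Ndufa4l2) rose in hypoxia and in hypoxia with PTH, each against normoxia. All 10 were above 0 in every library, and 1 of them, Trpc6, is also listed below among the cGMP effectors. Per 1000 CPM of these markers, Gucy1a1 had 239, 226 and 211 CPM in hypoxia with PTH, 227, 217 and 234 in hypoxia and 248, 249 and 256 in normoxia. Against pericyte markers the order was thus the opposite of that in CPM, with the normoxic libraries highest and no overlap. The ratio has no test, and its denominator was itself higher in the hypoxic libraries, with Postn alone at 280 to 470 CPM. More pericytes and more RNA of the markers per cell cannot be told apart here. The part of the pericyte markers in the Gucy1a1 difference was not tested. The same ratio of Gucy1b1 averaged 161 ± 14.6 in hypoxia with PTH, 173 ± 9.36 in hypoxia and 202 ± 8.28 in normoxia (SD, n = 3 each). Its normoxic libraries (193 to 208) likewise lay above those of hypoxia with PTH (148 to 177) and hypoxia (163 to 181). For Pde5a the ratio was 140 to 179 in hypoxia with PTH, 120 to 149 in hypoxia and 166 to 221 in normoxia. There, only hypoxia and normoxia did not overlap.

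The balance of the subunits differed between libraries in another way. The ratio of Gucy1b1 to Gucy1a1 in TPM was 1.31, 1.16 and 1.34 in hypoxia with PTH, 1.42, 1.42 and 1.23 in hypoxia and 1.48, 1.48 and 1.34 in normoxia. It was 1.42 to 1.48 in the 4 libraries with 160 to 316 CPM of Dbp and 1.16 to 1.34 in the 5 libraries with 6.14 to 16.5 CPM of Dbp. All 3 libraries of hypoxia with PTH were among the 5, so PTH and the Dbp level cannot be told apart for this ratio except beside hypoxia replicate 5 (1.23) and normoxia replicate 5 (1.34). This split was noticed in these data and has no test.

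**Figure D4:**
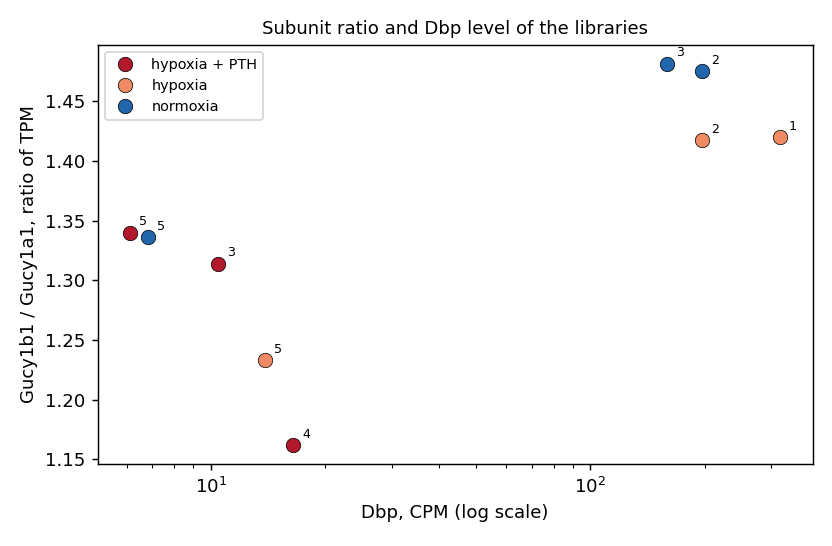
Ratio of Gucy1b1 to Gucy1a1 in TPM (y axis, not starting at 0) against Dbp in CPM (x axis, log scale) in the 9 libraries, coloured by group and marked with the replicate number. The 4 libraries with 160 to 316 CPM of Dbp have ratios of 1.42 to 1.48, and the 5 with 6.14 to 16.5 CPM have ratios of 1.16 to 1.34.

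Prkg1, the cGMP-dependent protein kinase of smooth muscle, was the least abundant member. It had 6.24, 9.29 and 6.37 CPM in hypoxia with PTH, 6.80, 10.8 and 4.86 CPM in hypoxia and 5.50, 4.92 and 11.6 CPM in normoxia. Each group spanned much of the same range, with normoxia replicate 5 highest and hypoxia replicate 5 lowest. The sum of 8 smooth muscle markers also overlapped, at 762 to 943 CPM in hypoxia with PTH, 863 to 1259 CPM in hypoxia and 766 to 1463 CPM in normoxia. For Prkg1 the log2 fold change was 0.03 in hypoxia against normoxia, with a 95% interval from -0.81 to 0.88, so changes of moderate size in either direction could not be detected. Cstf2t lies within Prkg1 on the opposite strand at 27.2 TPM, above the 2.62 TPM of Prkg1. Whether strand was used in counting is not given in the sources used here, so reads of these genes may not have been told apart.

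Pde5a and Pde3a are the phosphodiesterases among the members. Pde5a, which breaks down cGMP and is the target of sildenafil, had 231, 154 and 190 CPM in hypoxia with PTH, 202, 168 and 136 CPM in hypoxia and 181, 184 and 156 CPM in normoxia. The groups overlapped throughout, and PTH replicate 3 was the highest library and hypoxia replicate 5 the lowest. In log2, Pde5a differed by -0.05 in hypoxia against normoxia (95% interval -0.42 to 0.33) and 0.18 in hypoxia with PTH against hypoxia (95% interval -0.19 to 0.56).

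Pde3a, which breaks down cAMP and is inhibited by cGMP, had 89.6, 104 and 106 CPM in hypoxia with PTH, 105, 80.7 and 78.5 CPM in hypoxia and 75.6, 115 and 143 CPM in normoxia. Normoxia held both the lowest and the highest library. Platelets also carry Pde3a and Pde5a, and the sum of 5 platelet markers was 25.8 to 46.7 CPM in hypoxia with PTH, 34.8 to 44.2 CPM in hypoxia and 41.9 to 59.9 CPM in normoxia. For Pde3a the log2 fold change was -0.34 in hypoxia against normoxia (95% interval -0.81 to 0.13). The antisense gene Gm28523 had 41.0% of its TPM.

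Npr3, the natriuretic peptide clearance receptor, removes natriuretic peptides, which raise cGMP through membrane guanylyl cyclases. It varied most among the members, with a 6.19-fold range of CPM over the 9 libraries and a biological coefficient of variation of 0.434, beside 0.204 for all genes together. It had 68.7, 213 and 252 CPM in hypoxia with PTH, 69.8, 78.2 and 66.1 CPM in hypoxia and 144, 187 and 410 CPM in normoxia. All 3 hypoxic libraries lay below all normoxic ones, PTH replicates 4 and 5 lay among the normoxic ones, and PTH replicate 3 lay among the hypoxic ones.

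The log2 fold change of Npr3 was -1.79 in hypoxia against normoxia (SE 0.54, edgeR unadjusted p = 0.011, adjusted p = 0.224) and 1.32 in hypoxia with PTH against hypoxia (SE 0.53, edgeR unadjusted p = 0.0392, adjusted p = 0.515). Between hypoxia with PTH and normoxia it was -0.47 (95% interval -1.69 to 0.74). DESeq2 called the first (adjusted p = 0.0275), and so did edgeR in the 4 libraries rich in Dbp alone (log2 fold change -1.16, adjusted p = 0.0421). Without normoxia replicate 5 the first was -1.21 (adjusted p = 0.386) and the last was 0.10. The cardiac muscle markers were lowest in PTH replicate 5 (54.5 CPM) and next in normoxia replicate 5 (281 CPM), the libraries highest in Npr3. Hypoxia replicate 1 had the lowest sum of adipocyte markers (24.5 CPM) and 69.8 CPM of Npr3. With a muscle and fat score as covariate the difference between hypoxia with PTH and hypoxia was 0.69, and with a clock score 0.89, neither called. Beyond these fits the part of muscle, fat and clock phase in the Npr3 values was not tested. Per 1000 CPM of endothelial markers Npr3 had 13.9, 35.4 and 44.5 CPM in hypoxia with PTH, 13.7, 17.5 and 11.3 in hypoxia and 30.6, 33.1 and 65.4 in normoxia, which leaves each library on the same side as in CPM. The genes most like Npr3 over the 9 libraries, looked up after its values were seen, were Mpp3, Noct and Ctla2a, with root mean square differences of 0.306, 0.429 and 0.439 beside an SD of 0.973 for Npr3.

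Ptgis and Ptgir form the prostacyclin arm. Ptgis, prostacyclin synthase, had 137, 157 and 145 CPM in hypoxia with PTH, 184, 171 and 150 CPM in hypoxia and 141, 145 and 104 CPM in normoxia. Hypoxia lay above normoxia without overlap, and hypoxia with PTH overlapped both. Fibroblasts also make prostacyclin, and the sum of 10 fibroblast markers was 3142 to 3414 CPM in hypoxia with PTH, 2381 to 3135 CPM in hypoxia and 1812 to 2081 CPM in normoxia. In hypoxia against normoxia 8 of the 10 were above 0, and edgeR called 0 (4 at an unadjusted p under 0.05). In hypoxia with PTH against normoxia 6 of the 10 were above 0, of which Col3a1, Pdgfra and Npnt were called. Dcn, Lum, Scara5 and Pi16 were below 0 in log2 (-0.33, -0.67, -0.49 and -0.48), and none of these was called. Npnt alone had 597 to 1251 CPM of the sum. By mean centred log2 CPM of the 10 markers the order of the hypoxic groups differed, at 0.08 in hypoxia with PTH, 0.13 in hypoxia and -0.21 in normoxia. The part of fibroblasts in the Ptgis values was not tested. For Ptgis the log2 fold change was 0.37 in hypoxia against normoxia (SE 0.13, edgeR adjusted p = 0.270) and -0.20 in hypoxia with PTH against hypoxia (95% interval -0.49 to 0.09).

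Ptgir, the prostacyclin receptor, had 7.52, 4.80 and 6.37 CPM in hypoxia with PTH, 8.63, 6.56 and 5.51 CPM in hypoxia and 4.73, 4.28 and 2.73 CPM in normoxia. All hypoxic libraries lay above all normoxic ones, PTH replicate 4 only just. The log2 fold change was 0.81 in hypoxia against normoxia (SE 0.26, edgeR adjusted p = 0.219), 0.67 in hypoxia with PTH against normoxia (SE 0.26, edgeR adjusted p = 0.222) and -0.15 in hypoxia with PTH against hypoxia (95% interval -0.72 to 0.42). Per 1000 CPM of pericyte markers it averaged 5.13 ± 0.727 in hypoxia with PTH, 5.65 ± 0.752 in hypoxia and 4.46 ± 1.45 in normoxia (SD, n = 3 each), with overlap of all groups.

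Of 95 further genes of these pathways, 86 were tested and 4 were called in a comparison, Ass1, Nos2, Adcy3 and Pde4a. In hypoxia against normoxia 1 of the 86 rose and 0 fell, beside 0.57% of all genes called. In hypoxia with PTH against hypoxia 0 were called, beside 0% of all genes. In hypoxia with PTH against normoxia 2 rose and 1 fell, beside 1.74% of all genes called. Ass1 and Nos2 belong to the 18 genes tested for nitric oxide synthesis, its substrate and its cofactor, Pde4a to 15 phosphodiesterases and Adcy3 to 16 genes of the cAMP side of prostacyclin signalling. By edgeR 0 were called among 7 genes of guanylyl cyclases and natriuretic peptides, 11 cGMP effectors and 19 prostaglandin and thromboxane genes, with at most 1, 1 and 3 at an unadjusted p under 0.05 in any comparison. Over the 86 genes the median log2 fold change was 0.04 in hypoxia against normoxia, 0.05 in hypoxia with PTH against hypoxia and 0.05 in hypoxia with PTH against normoxia. At an unadjusted p under 0.05 there were 9, 8 and 17 of the 86, against 11.8%, 9.31% and 17.2% of all genes tested in the same comparisons, which is near the share in this list.

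Ass1 makes argininosuccinate on the way from citrulline back to arginine, the substrate of nitric oxide synthases. It had 25.0, 29.7 and 23.6 CPM in hypoxia with PTH, 46.4, 45.3 and 33.4 CPM in hypoxia and 23.9, 26.5 and 22.7 CPM in normoxia. Hypoxia lay above both other groups without overlap, and those groups overlapped. It rose in hypoxia against normoxia (log2 fold change 0.77, SE 0.14, edgeR adjusted p = 0.046). In hypoxia with PTH against hypoxia the value was -0.68 (SE 0.14, edgeR adjusted p = 0.366), which DESeq2 called (adjusted p = 0.00533). The rise was no longer called without any 1 of the normoxic libraries (adjusted p = 0.117 without replicate 2, 0.109 without 3 and 0.113 without 5), hypoxia replicate 1 (0.171) or 2 (0.101), or PTH replicate 3 (0.0506) or 5 (0.0581).

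**Figure D5:**
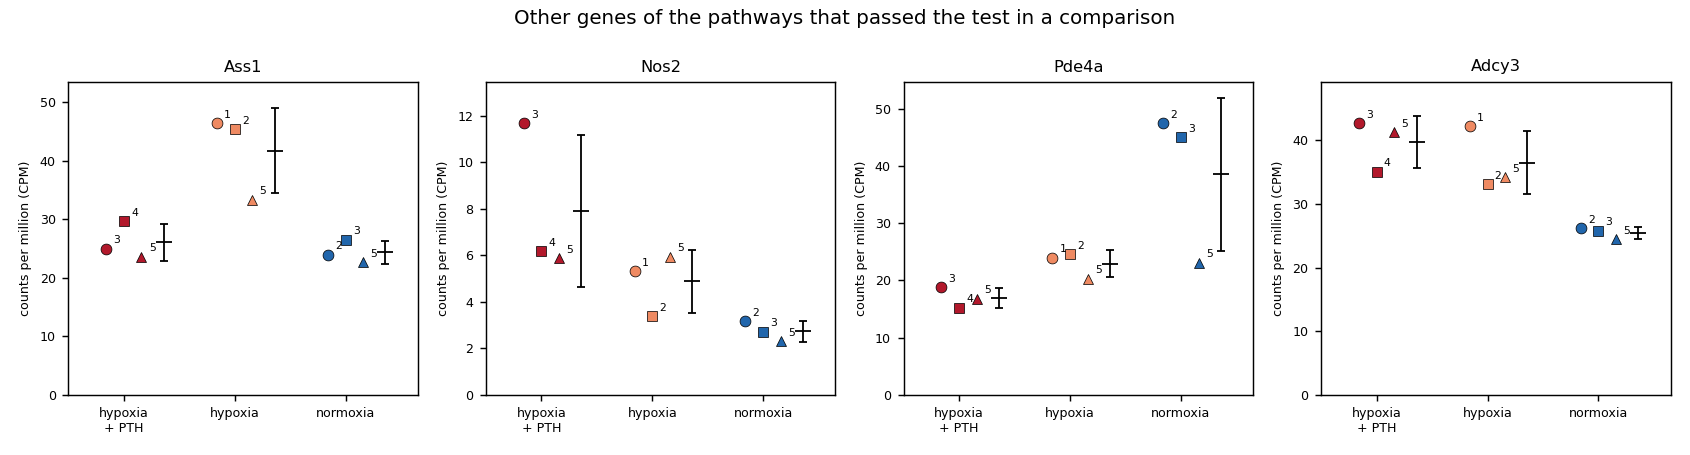
CPM (y axes, each from 0) of Ass1, Nos2, Pde4a and Adcy3 in hypoxia with PTH, hypoxia and normoxia, with libraries as points marked by replicate number and bars for the mean and SD of 3. Ass1 is at 33.4 to 46.4 CPM in hypoxia and at 22.7 to 29.7 CPM in the other groups, and Nos2 and Adcy3 are lowest in normoxia.

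Nos2, the inducible nitric oxide synthase, had 11.7, 6.17 and 5.87 CPM in hypoxia with PTH, 5.32, 3.37 and 5.93 CPM in hypoxia and 3.17, 2.71 and 2.30 CPM in normoxia. All hypoxic libraries lay above all normoxic ones, and PTH replicate 3 stood well above the rest. Nos2 rose in hypoxia with PTH against normoxia (log2 fold change 1.53, SE 0.31, edgeR adjusted p = 0.0418), while the value in hypoxia against normoxia was 0.84 (edgeR adjusted p = 0.301). The adjusted p of the rise was 0.0973, 0.126 and 0.0958 without normoxia replicate 2, 3 or 5, and 0.0645 without hypoxia replicate 1. Without PTH replicate 3, 4 or 5 it was 0.072, 0.0609 and 0.0697. In hypoxia with PTH against hypoxia the log2 fold change was 0.70 (edgeR adjusted p = 0.524), and those groups overlapped.

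Adcy3, an adenylyl cyclase that makes cAMP, had 42.7, 35.1 and 41.3 CPM in hypoxia with PTH, 42.2, 33.1 and 34.2 CPM in hypoxia and 26.2, 25.8 and 24.4 CPM in normoxia. The normoxic libraries lay below all others. Adcy3 rose in hypoxia with PTH against normoxia (log2 fold change 0.64, SE 0.11, edgeR adjusted p = 0.025), and the value in hypoxia against normoxia was 0.52 (edgeR adjusted p = 0.0803). The adjusted p of the rise was 0.0735, 0.0891 and 0.0589 without normoxia replicate 2, 3 or 5, and 0.0562 and 0.0959 without PTH replicate 3 or 5. In hypoxia with PTH against hypoxia the log2 fold change was 0.12, not called, and those groups overlapped. Cenpo lies on the opposite strand of Adcy3 with 17.4% of its TPM.

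Pde4a, a cAMP phosphodiesterase, had 18.8, 15.2 and 16.8 CPM in hypoxia with PTH, 24.0, 24.5 and 20.3 CPM in hypoxia and 47.5, 45.0 and 23.1 CPM in normoxia. It fell in hypoxia with PTH against normoxia (log2 fold change -1.19, SE 0.24, edgeR adjusted p = 0.0418). In hypoxia with PTH against hypoxia the value was -0.44 (SE 0.23, edgeR adjusted p = 0.601). Those groups did not overlap, as for 13.9% of all genes. In hypoxia against normoxia the log2 fold change was -0.75 (SE 0.23, edgeR unadjusted p = 0.00988, adjusted p = 0.213). DESeq2 called that difference (adjusted p = 0.0404), and edgeR called it without normoxia replicate 5 (-1.01, adjusted p = 0.0108) and in the 4 libraries rich in Dbp alone (-0.93, adjusted p = 0.02). Normoxia replicate 5, poor in Dbp, lay near the hypoxia libraries, which were at 20.3 to 24.5 CPM whether rich or poor in Dbp. With a clock score as covariate the value in hypoxia with PTH against normoxia was -0.78 (edgeR adjusted p = 0.155), and the part of the clock genes in it was not tested. The call in that comparison was lost when any 1 library but normoxia replicate 5 was left out, at adjusted p of 0.0624 to 0.147.

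Other genes of nitric oxide synthesis that came closest were Ddah2, a relative of Ddah1, and Nostrin, which moves Nos3 within the endothelial cell. Ddah2 had 75.4, 64.9 and 72.9 CPM in hypoxia with PTH, 65.0, 59.0 and 66.6 CPM in hypoxia and 57.5, 57.6 and 57.8 CPM in normoxia, and Nostrin averaged higher in hypoxia with PTH than in normoxia by 0.51 in log2 (edgeR adjusted p = 0.105). The log2 fold change of Ddah2 in hypoxia with PTH against normoxia was 0.30 (edgeR adjusted p = 0.0846), with no overlap. Among the cyclases and natriuretic peptides, Mme, which degrades natriuretic peptides, was at 0.48 in the same comparison (edgeR adjusted p = 0.177), and Furin, a protease that processes them, at 0.30 (adjusted p = 0.309). Gucy1a2, another alpha subunit of the cyclase, had 1.37, 0.508 and 0.521 CPM in hypoxia with PTH, 1.26, 1.14 and 0.876 CPM in hypoxia and 0.582, 0.587 and 0.607 CPM in normoxia. All hypoxia libraries lay above all normoxic ones at these low levels, a difference of 0.88 in log2 (SE 0.41, edgeR unadjusted p = 0.056, adjusted p = 0.437). The cardiac peptide gene Nppa, which is also 1 of the cardiac markers, had 0.567, 0.693 and 0.0473 CPM in hypoxia with PTH, 0.421, 13.7 and 19.97 CPM in hypoxia and 40.6, 2.57 and 0.065 CPM in normoxia. Npr1, the membrane guanylyl cyclase that binds it, averaged 242 CPM in hypoxia with PTH, 226 in hypoxia and 228 in normoxia (n = 3 each).

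Among the phosphodiesterases, which break down cyclic nucleotides, Pde1c had 0.756, 0.739 and 0.663 CPM in hypoxia with PTH, 0.940, 1.51 and 1.28 CPM in hypoxia and 0.976, 0.932 and 1.08 CPM in normoxia. The PTH libraries lay below all others at these low levels, with 28 to 32 counts beside 38 to 69.8 in the other groups. The log2 fold change was -0.79 in hypoxia with PTH against hypoxia (SE 0.27, edgeR unadjusted p = 0.0146, adjusted p = 0.460) and -0.47 in hypoxia with PTH against normoxia (adjusted p = 0.417). In the first comparison groups were apart for 11 of the 86 pathway genes tested, beside 13.9% of all genes. Pde7a and Pde3b had -0.25 and -0.41 in hypoxia with PTH against normoxia, with adjusted p of 0.190 and 0.260 by edgeR. Of the cGMP effectors, Vasp, a substrate of the cGMP kinase, had -0.22 in hypoxia against normoxia (edgeR adjusted p = 0.373), and Rgs2, a regulator of G protein signalling, had 0.69 in hypoxia with PTH against normoxia (adjusted p = 0.405). Prkg2, the second cGMP kinase, had -0.23 in hypoxia with PTH against hypoxia (adjusted p = 0.565), and Ppp1r12a, a subunit of myosin phosphatase, had -0.16 in hypoxia against normoxia (adjusted p = 0.548). Tbxas1, which makes the vasoconstrictor thromboxane, had 9.60, 8.50 and 9.47 CPM in hypoxia with PTH, 8.54, 5.59 and 7.32 CPM in hypoxia and 6.25, 5.97 and 6.05 CPM in normoxia. Its log2 fold change in hypoxia with PTH against normoxia was 0.59 (edgeR adjusted p = 0.101). The prostaglandin receptor genes Ptger1 and Ptgdr2 were at 0.30 and 0.91 in that comparison (adjusted p = 0.143 and 0.257), and Ptgfr was at -0.57 in hypoxia with PTH against hypoxia (adjusted p = 0.501). On the cAMP side Adcy5 had 0.69 in hypoxia against normoxia (edgeR adjusted p = 0.0628), Adcy2 had 0.33 (adjusted p = 0.249), and Prkar2a, a subunit of the cAMP kinase, had 0.25 in hypoxia with PTH against hypoxia (adjusted p = 0.467).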

How the data were processed

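RNA of 9 whole lung libraries was compared in 3 groups of 3. Per the submitters' processing notes, Trimmomatic 0.39, STAR 2.7.9a and the build mm10 were used. Which counter and annotation the authors used, and whether strand was counted, is not given in the sources used here. Expected counts were deposited by the authors (11.4% of those above 0 were whole numbers), as were log2 TPM values, floored at 1 TPM. Small whole counts (1 to 20) were even in 88.8% of cases, as if both mates of a pair were counted.

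Counts were rounded and fitted with edgeR 4.0.16 in R 4.3.3: TMM, filterByExpr (minimum count 10, minimum total 15), robust quasi-likelihood F test, 1 model of 9 libraries with 6 residual degrees of freedom, and Benjamini-Hochberg adjustment over 19640 genes. SE is the log2 fold change divided by the square root of F. TPM are powers of 2 of the deposited values. The procedure was tested on simulated data.

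DESeq2 1.42.0, other filters and scalings, a replicate block, libraries left out, and the muscle and fat score and clock score (mean centred log2 CPM of the markers) were alternatives. Members, lists and named genes (every member, called pathway genes, and up to 4 more per list by smallest p) were chosen with earlier results of these data known. Names older than those used were matched by gene ID, and 96.3% of 53237 IDs had the same position in GENCODE.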

Additional observations from a re-analysis of the deposited data

How the results depend on the processing

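With 3 libraries per group, and totals that may count mates individually, intervals were widest for Npr3, Prkg1 and Ptgir. Their SE in hypoxia against normoxia were 0.54, 0.38 and 0.26, beside a median of 0.17 over all genes. That of Gucy1a1 was the lowest of the members, at 0.11. Prkg1 and Ptgir had the fewest counts of the members. No member was called under RLE scaling, no filter, the stricter filter, fits of 6 samples, the replicate block or either covariate. DESeq2 called 2 members in hypoxia against normoxia (Nos3 and Npr3) and 1 in hypoxia with PTH against normoxia (Nos3). The 4 Dbp-rich libraries gave 1 (Npr3) in hypoxia against normoxia. With 1 library left out, members called were 0 in hypoxia against normoxia, 0 in hypoxia with PTH against hypoxia, and 0 to 1 in hypoxia with PTH against normoxia (Nos3, without PTH replicate 3). The causes were not tested.

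Over all genes, hypoxia against normoxia had 112 calls, with 198 without a filter, 8 under the replicate block and 795 with DESeq2, and 50 to 158 with 1 library left out (50 without normoxia replicate 3, 52 without hypoxia replicate 1, 70 without hypoxia replicate 5). Hypoxia with PTH against normoxia had 341, with 17 under the block, 127 with the muscle and fat score, 76 with the clock score and 1422 with DESeq2, and 81 to 359 with 1 library left out (81 without normoxia replicate 2, 84 without normoxia replicate 3, 83 without PTH replicate 5, 186 without PTH replicate 4). Hypoxia with PTH against hypoxia had 0, with 156 by DESeq2 and 0 to 1 with 1 library left out (1 without hypoxia replicate 5).

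Ass1, Nos2, Pde4a and Adcy3 lost their calls under the replicate block (adjusted p = 0.249, 0.285, 0.235 and 0.0886) and with the muscle and fat score (0.0723, 0.0729, 0.131 and 0.0691). Not every loss is named here. Over all alternatives, Ass1 was called in 8 of 18 in hypoxia against normoxia. In hypoxia with PTH against normoxia, Nos2 was called in 6 of 17, Pde4a in 4 of 17 and Adcy3 in 9 of 17. The block leaves few residual degrees of freedom, and the numbers of hypoxia replicate 1 and PTH replicate 4 occur in no other library. A lack of calls under it, here or for the members, therefore says little. Correlations of deviations were -0.097 to 0.143 in 5 same-number pairs and -0.267 to 0.271 in 22 others. With 5 such pairs these values cannot show whether equal replicate numbers pair the libraries.

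Log2 fold changes that changed sign were all of values not called by edgeR in that comparison. In hypoxia against normoxia, Prkg1 was -0.065 under the replicate block and -0.33 to 0.52 with 1 library left out. Pde5a was 0.019 in the Dbp-rich libraries and -0.20 to 0.092 with 1 left out. In hypoxia with PTH against hypoxia, the block gave Nos3 -0.25, Gucy1a1 0.034, Gucy1b1 0.074 and Ptgir 0.25. The clock score gave Nos3 -0.066, Ptgis 0.057 and Ptgir 0.25, and the muscle and fat score gave Pde3a -0.17. With 1 library left out that comparison gave Nos3 -0.092 to 0.27, Gucy1a1 -0.11 to 0.081, Gucy1b1 -0.23 to 0.029, Prkg1 -0.27 to 0.33 and Ptgir -0.30 to 0.047. In hypoxia with PTH against normoxia, Prkg1 was 0.0021 with RLE, 0.0055 without a filter, 0.0022 with 6 samples and 0.00063 with DESeq2, and -0.23 to 0.49 with 1 left out. The same range was -0.0027 to 0.24 for Gucy1b1, -0.017 to 0.27 for Pde5a, -0.37 to 0.064 for Pde3a, -0.21 to 0.024 for Ddah1, -0.81 to 0.10 for Npr3 (-0.47 with all libraries, 0.10 without normoxia replicate 5) and -0.0053 to 0.16 for Ass1.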
